A study of Mus musculus with 9 samples.

Results

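The metal handling genes described here are the members of the Slc11, Slc30, Slc31, Slc39, Slc40 and Slc41 transporter families together with 16 named genes for metallothioneins, ferritin subunits, transferrin and its receptor, ceruloplasmin, the Steap reductases, the iron regulatory proteins, Mtf1 and the copper pumps Atp7a and Atp7b. They were chosen by name, and 49 of the 55487 genes in the table qualified. Of these, 41 passed a filter on low counts that 16353 genes passed in all. PT-22 is a mouse proximal tubule cell line, and every library came from its derivative with the genotype Pax2-/-, Pax8fl/fl, Rosa-CreERT2 that also carries Pax8-pTRIPZ, a doxycycline-inducible Pax8 vector. PolyA RNA was sequenced from 3 libraries at each of 3 days, lettered A to C. Day 0 cells were untreated, day 6 cells had received 1 uM 4-hydroxytamoxifen, which activates the Cre recombinase to delete Pax8, for 2 days by the protocol or 6 by the design text, and day 12 cells had then received 1 ug/ml doxycycline every 2 days for 6 days, all in medium with 3% serum. The labels do not say whether the 3 libraries of a day came from separate cultures, so the spread behind each p-value may be technical. The samples held no group labelled as given vehicle, or as kept to day 12 without doxycycline. Time in culture, the drugs and Pax8 therefore cannot be told apart.

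Cells take up transferrin-bound iron through the transferrin receptor, reduce it, store the surplus in ferritin cages built from heavy and light subunits, and release it through ferroportin, the Slc40a1 product, with a ferroxidase such as ceruloplasmin. Iron regulatory proteins, the products of Aco1 and Ireb2, bind hairpins called iron-responsive elements in several of these mRNAs, blocking ferritin translation and protecting the receptor mRNA when iron is scarce. For zinc, Slc39 proteins bring the metal into the cytosol, Slc30 proteins move it out or into organelles, and metallothioneins, switched on through the zinc sensor Mtf1, bind it. The proximal tubule reabsorbs filtered iron and zinc.

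The 9 libraries held between 56398623 and 86767334 counts each, and a single read weighed 0.0120 to 0.0172 CPM, the count scaled to library size. Pax8, the targeted gene, did not fall: its mean was 291 CPM on day 0, 405 on day 6 and 496 on day 12, and a gene-level count can hold reads from exons outside the deleted part and from the vector. Of 14 proximal tubule markers 7 were measurable, with Slc34a1, Slc5a12 and Slc22a6 at 0 in all libraries, Lrp2 at a mean of 391, 58.7 and 71.8 CPM on days 0, 6 and 12, and Aqp1 at 119, 324 and 328 CPM. Summed markers of macrophages and other blood cells were 40.96 to 46.3 CPM on day 0, 24.4 to 28.2 on day 6 and 28.3 to 29.3 on day 12, with Tyrobp at 0. Of the 4 tested, Csf1r and Ptprc fell by day 6 (25.5 to 7.96 and 2.12 to 0.0299 CPM), Cd68 was not called (15.7 and 15.7 CPM) and Lyz2 rose 8.33-fold (0.335 to 2.77 CPM). The share of mitochondrially encoded genes in the counts was 6.79% ± 0.138, 7.10% ± 0.0721 and 2.83% ± 0.988 in day order (SD, n = 3), and leaving these genes out changed no call of a metal handling gene. The part of the other cell markers in the results below was not tested.

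Levels below are CPM on library sizes corrected by trimmed mean of M values (TMM), as means ± SD over the 3 libraries of a day, unless TPM, the authors' transcript shares scaled for gene length, are named. A gene was called where edgeR's quasi-likelihood F test gave a Benjamini-Hochberg adjusted p under 0.05 over all 16353 genes. Between day 0 and day 6, 14 of the 41 tested metal handling genes rose, 15 fell and 12 were not called, in a comparison that called 64.9% of all genes, 33.5% higher and 31.4% lower. The median log2 fold change of the 41 was -0.04 against 0.02 for all genes, and their median absolute change was 0.33 against 0.32. At 2-fold or more, 6 members were higher and 2 lower, where 9.66% and 4.65% of all genes were, 14.3% together. Of the 6, Slc11a1 and Slc39a4 lay under 1 CPM at every day and rest on few counts. The libraries of the 2 days did not overlap in 31 of the 41, and in 68.9% of all genes. On log2(TPM + 1), 11 of the 41 were called higher and 10 lower, and the day 6 calls of Steap2, Slc30a5, Slc30a7, Slc30a9, Slc39a4, Slc39a7, Mtf1 and Ireb2 were lost. The shares called in counts lay near those of the table, and what follows describes single genes and roles.

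**Figure D1:**
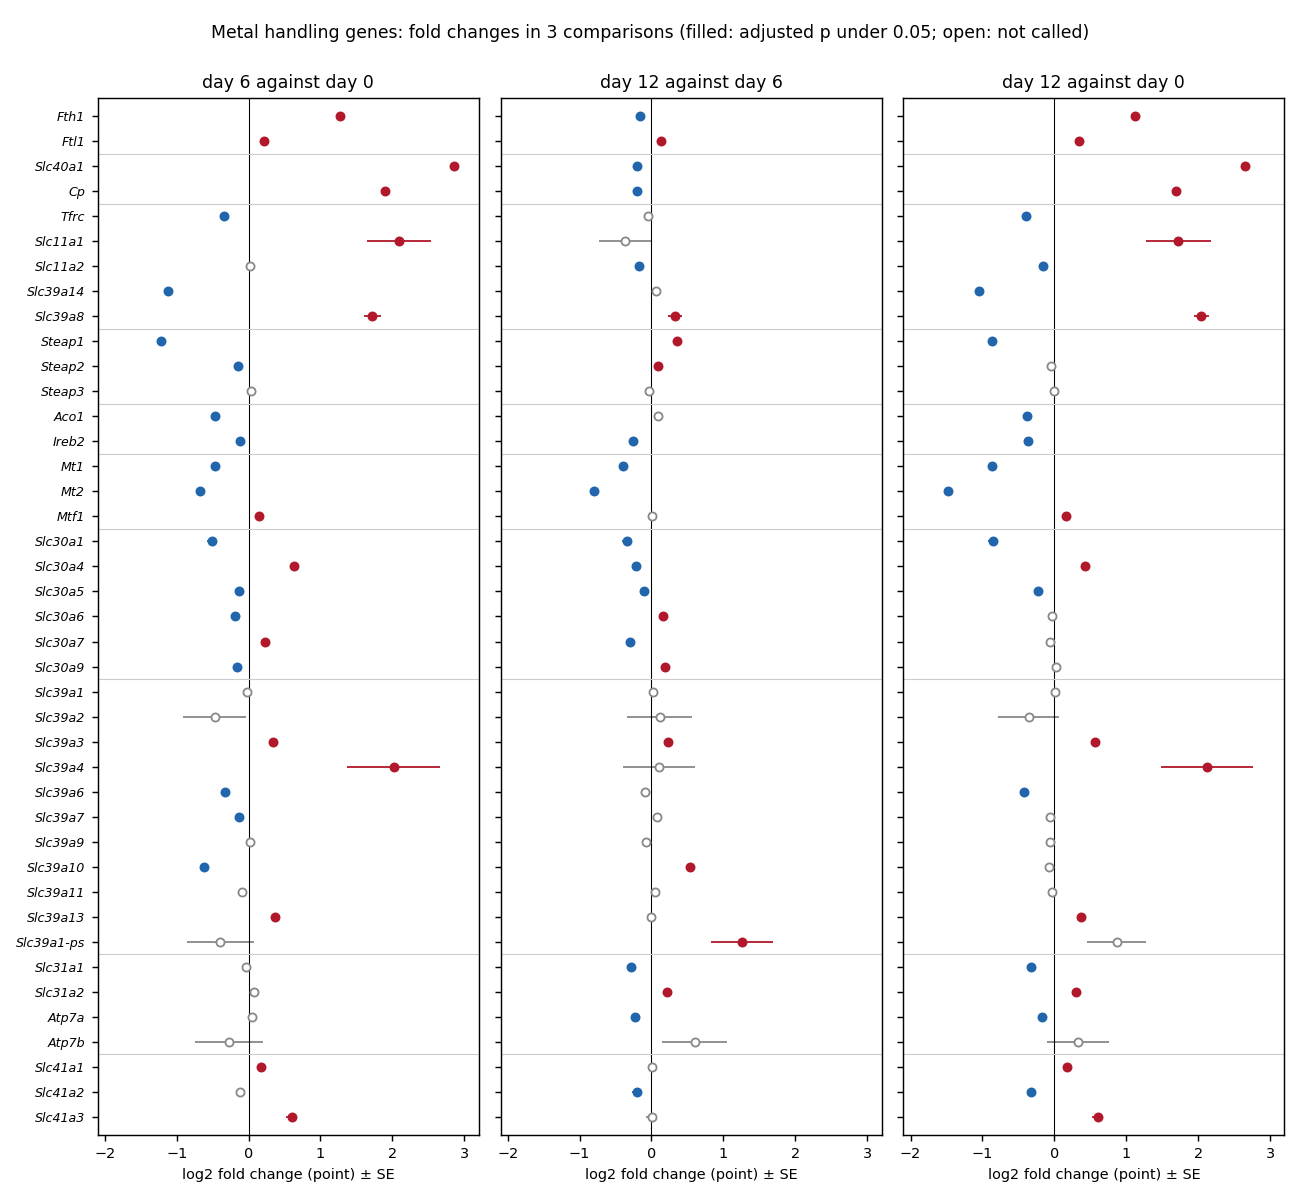
Log2 fold changes ± SE of the 41 tested metal handling genes, ordered by role from iron storage at the top to magnesium transport at the bottom, in 3 panels for day 6 against day 0, day 12 against day 6 and day 12 against day 0. Filled points are genes with adjusted p under 0.05, red higher and blue lower. Slc40a1 lies farthest to the right at 2.86 in the first panel, and most points in the middle panel lie near 0.

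The iron exporter had the largest fold change of the 41 tested genes on day 6. Slc40a1, which encodes ferroportin, measured 13.4, 14.2 and 12.8 CPM in libraries A to C on day 0, 94.7, 99.0 and 98.9 on day 6, and 82.55, 84.8 and 87.03 on day 12. All day 0 libraries lay far below the rest, and no 2 days overlapped. It rose 7.26-fold by day 6 (log2 fold change 2.86 ± 0.04 SE, adjusted p = 5.39e-17) and remained 6.31-fold above day 0 on day 12 (2.66 ± 0.04, adjusted p = 2.26e-16). The step from day 6 to day 12 was -0.20 ± 0.04 (adjusted p = 0.000265) in counts. It was 0.01 on the log2(TPM + 1) scale, where the median of all genes had moved by 0.16. On TPM rescaled by median ratios the step stayed called lower. The direction of that small step thus turned on TPM without correction for the general shift. In bulk RNA, a shift in how many cells express a gene and a shift in its RNA per cell cannot be told apart.

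Cp encodes ceruloplasmin, the copper-containing ferroxidase that works beside ferroportin. Its levels were 311, 328 and 318 CPM on day 0, 1181, 1229 and 1164 on day 6, and 1031, 1059 and 1011 on day 12. Again the day 0 libraries were low and the days did not overlap. The rise was 3.74-fold on day 6 (log2 1.90 ± 0.04 SE, adjusted p = 9.82e-16) and 3.24-fold on day 12 against day 0 (1.70 ± 0.04, adjusted p = 5.37e-15), with a fall by 0.20 ± 0.03 on the log2 scale between days 6 and 12 (adjusted p = 0.000196) that was 0.03 in size on log2(TPM + 1) and not called there. On TPM rescaled by median ratios this fall stayed called. Summed per length, Slc40a1 and Cp held 139.5 ± 4.5 TPM on day 0, 561.7 ± 11 on day 6 and 551.7 ± 7.1 on day 12, nearly all of it Cp. The exons of Cp share bases with Hps3 on the other strand, and the sources used here do not state whether counting used strand.

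**Figure D2:**
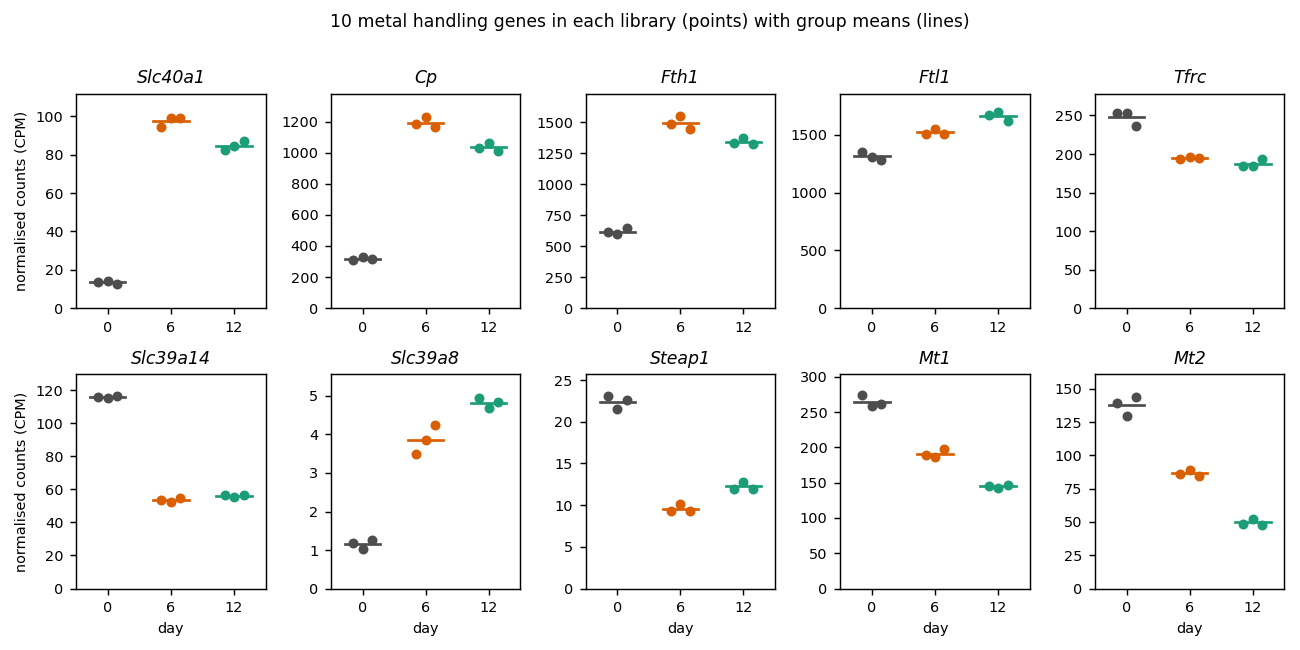
Normalised counts (CPM, linear axes from 0) of 10 metal handling genes in each of 9 libraries by day, with lines at the group means. Slc40a1, Cp and Fth1 are low in all day 0 libraries, Mt1 and Mt2 step down at both days, and Slc39a14 and Steap1 are highest on day 0.

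The 2 ferritin genes both rose, by different amounts. The mRNAs carry near the 5′ end the iron-responsive element through which iron regulatory proteins block their translation. Among the metal handling genes searched, Tfrc also held it, in the 3′ untranslated region. The 2 ferritin elements are shown because the subunits share this feature. Capitals mark the 6-base loop. Both were found on GRCm38 in the 5′ untranslated region, at chr19:9982732-9982760 on the plus strand for Fth1 and at chr7:45459779-45459807 on the minus strand for Ftl1, by a search for the loop letters CAGTG plus a base other than G, a C separated from them by 5 bases, and 5 paired bases in the upper stem. The 2 sites are written below, 5′ to 3′.
Fth1: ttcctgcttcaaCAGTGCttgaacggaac
Ftl1: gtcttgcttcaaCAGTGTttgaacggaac
Whole transcripts of protein-coding genes were searched, coding parts included, and such a match occurred in 222 of 21877 genes, which is 1.01%. Sites of metal handling genes were kept only for the 41 with a RefSeq promoter entry, and 3 of these held a match. These 41 are not the same set as the 41 tested genes. The 8 without an entry, Slc40a1 and Slc11a2 among them, were left out, so neither a match nor its absence is given for them.

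Fth1, the heavy subunit with ferroxidase activity, measured 613, 594 and 643 CPM on day 0, 1484, 1551 and 1443 on day 6, and 1329, 1369 and 1321 on day 12. Day 0 lay below all other libraries and the days did not overlap. The change was 2.42-fold on day 6 (log2 1.28 ± 0.04 SE, adjusted p = 2.52e-13) and 2.17-fold on day 12 against day 0 (1.12 ± 0.04, adjusted p = 1.68e-12), and between days 6 and 12 it was -0.16 ± 0.04 in counts (adjusted p = 0.00384) but 0.05 on log2(TPM + 1). On TPM rescaled by median ratios the fall between days 6 and 12 stayed called. Ftl1, the light subunit that aids mineral formation, measured 1351, 1305 and 1280 CPM on day 0, 1508, 1547 and 1508 on day 6, and 1673, 1694 and 1619 on day 12. It stepped up at both days without overlap, by 0.21 ± 0.03 on the log2 scale on day 6 (adjusted p = 5.28e-05) and by a further 0.13 ± 0.03 on day 12 (adjusted p = 0.00667).

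The ratio between the subunits differed between days without overlap, although 3 libraries a day cannot bring an exact test under the threshold. The ratio of Fth1 to Ftl1 in TPM, which are scaled by length and so allow the comparison between genes, was 0.480, 0.483 and 0.536 on day 0, 1.04, 1.06 and 1.01 on day 6, and 0.841, 0.855 and 0.865 on day 12. Its means were 0.500 ± 0.031, 1.04 ± 0.025 and 0.854 ± 0.012 (SD, n = 3). An exact two-sided permutation test gave p = 0.1 for each pair of days, the smallest value that 20 regroupings of 3 against 3 allow (adjusted p = 0.1 over 6 ratio comparisons). Other rows named as ferritin heavy copies held 0.0018% of the counts of Fth1, and those of light copies 0.633% of the counts of Ftl1, so reads split to these copies were few. Ftl1 shares exon bases with Gm22133 on its own strand and with Gm10252 on the other.

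**Figure D3:**
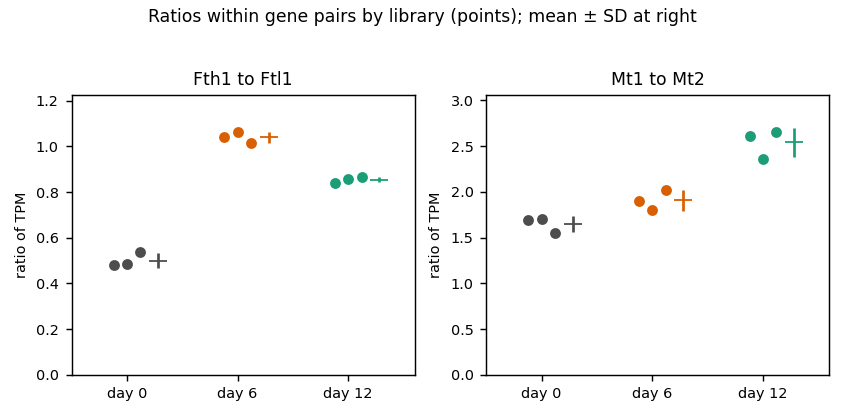
Ratios of TPM within 2 gene pairs in each library by day, with mean ± SD beside the points and axes from 0. The ratio of Fth1 to Ftl1 is near 0.5 on day 0, above 1 on day 6 and between those on day 12, and the ratio of Mt1 to Mt2 is highest on day 12.

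Genes for iron uptake moved in both directions. Tfrc encodes the transferrin receptor and carried 4 matches to the element in its 3′ untranslated region, where binding protects the mRNA from decay. They are printed to set their shared loop beside that of ferritin, and lie on the plus strand of GRCm38 at chr16:32631219-32631247, chr16:32631598-32631626, chr16:32631663-32631691 and chr16:32631710-32631738, in that order, with the loop in capitals.
Tfrc site 1: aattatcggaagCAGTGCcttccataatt
Tfrc site 2: cattatcgggagCAGTGTcttccataatg
Tfrc site 3: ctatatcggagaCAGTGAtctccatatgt
Tfrc site 4: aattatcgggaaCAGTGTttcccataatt
The Tfrc level was 253, 254 and 236 CPM on day 0, 193, 196 and 195 on day 6, and 185, 184 and 194 on day 12. All day 0 libraries were higher than the rest, while days 6 and 12 overlapped. Tfrc fell 1.27-fold on day 6 (log2 -0.35 ± 0.03 SE, adjusted p = 2.7e-07) and was 1.32-fold below day 0 on day 12 (-0.40 ± 0.03, adjusted p = 5.8e-08). Its step from day 6 to day 12 was -0.05 ± 0.03 in counts (adjusted p = 0.213) and 0.14 on log2(TPM + 1) (adjusted p = 0.016, limma).

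The transporters Slc39a14 and Slc39a8, close relatives that carry iron, zinc and manganese, went opposite ways. Slc39a14 measured 116, 115 and 117 CPM on day 0, 53.3, 52.1 and 54.9 on day 6, and 56.4, 55.3 and 56.3 on day 12. The day 0 libraries stood above all others, and the groups on days 6 and 12 lay close together without overlapping. It fell 2.17-fold on day 6 (log2 -1.12 ± 0.03 SE, adjusted p = 4.75e-14) and was 2.07-fold below day 0 on day 12 (-1.05 ± 0.03, adjusted p = 1.36e-13). Its later step, 0.07 ± 0.03 in counts (adjusted p = 0.0808), was called at 0.18 on log2(TPM + 1) and was -0.03 once TPM were rescaled by median ratios.

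Slc39a8 was scarce, at 1.20, 1.02 and 1.27 CPM on day 0, 3.49, 3.85 and 4.24 on day 6, and 4.95, 4.68 and 4.84 on day 12. The days did not overlap. It rose 3.3-fold on day 6 (log2 1.72 ± 0.12 SE, adjusted p = 3.1e-09) and was 4.13-fold above day 0 on day 12 (2.05 ± 0.11, adjusted p = 3.99e-10). The later step of 0.33 ± 0.10 (adjusted p = 0.0147) was lost without day 6 library A (adjusted p = 0.0784) and without day 12 library A (adjusted p = 0.0506). In TPM, Slc39a14 remained the more abundant of the pair, at 25.5 against 2.46 on day 12 where day 0 had 45.2 against 0.52.

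The divalent metal transporter Slc11a2, which moves iron out of endosomes, was not called on day 6, with 124 ± 0.814, 126 ± 2.57 and 111 ± 2.44 CPM on days 0, 6 and 12. In counts it was lower on day 12 than on day 0 by 0.16 ± 0.03 on the log2 scale (adjusted p = 0.000134), whereas on log2(TPM + 1) it was called higher. Its relative Slc11a1, known from macrophage phagosomes, had only 14, 56 and 47 counts summed over the 3 libraries of each day, or 0.0661 ± 0.0195, 0.288 ± 0.108 and 0.217 ± 0.0472 CPM. It was called higher on day 6 (log2 2.09 ± 0.44, adjusted p = 0.000649) at a level near the detection limit. Of the 4 tested markers of macrophages and other blood cells, Lyz2 was called higher on day 6 as well, Csf1r and Ptprc were called lower and Cd68 was not called, and their part in the Slc11a1 value was not tested. Transferrin itself, Trf, was too scarce to test, with 0, 6 and 24 counts by day.

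Steap proteins are membrane reductases that prepare iron and copper for transport, although Steap1 alone is thought to lack that activity without a partner. Steap1 measured 23.1, 21.5 and 22.6 CPM on day 0, 9.28, 10.1 and 9.35 on day 6, and 12.0, 12.8 and 12.0 on day 12. Day 0 was highest, day 6 lowest, and no days overlapped. It fell 2.34-fold on day 6 (log2 -1.23 ± 0.05 SE, adjusted p = 1.88e-11), rose by 0.36 ± 0.06 from there to day 12 (adjusted p = 0.00011), and was still 1.83-fold below day 0 (adjusted p = 1.06e-09).

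Steap2 measured 151 ± 7.72, 136 ± 2.47 and 146 ± 3.19 CPM. It was lower on day 6 by 0.15 ± 0.04 on the log2 scale and higher again on day 12 by 0.10 ± 0.04. The later step was lost without day 0 library B, day 6 library A or B, or day 12 library A or C. It was also lost with the DESeq2 test, with DESeq2 size factors and on TPM rescaled by median ratios. Steap3, the endosomal ferrireductase of the transferrin cycle, was not called in any comparison at 22.1 ± 0.397, 22.6 ± 0.75 and 22.1 ± 0.866 CPM. Steap4 had 0 counts in all 9 libraries, which cannot exclude a level below the depth of these libraries. Both iron regulatory protein genes fell by day 6. Aco1 measured 81.0 ± 2.06, 58.8 ± 1.48 and 62.4 ± 2.11 CPM, 1.38-fold lower on day 6 (adjusted p = 1.06e-08) and not called between days 6 and 12. Ireb2 went from 126 ± 3.16 to 116 ± 0.854 and 97.5 ± 4.48 CPM, lower at each step (adjusted p = 0.00674 and 3.24e-05), though neither step was called on log2(TPM + 1).

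Metallothioneins, small cysteine-rich proteins that buffer zinc and copper, stepped down at both days. Mt1 measured 274, 258 and 261 CPM on day 0, 189, 186 and 198 on day 6, and 146, 142 and 146 on day 12. Mt2 measured 140, 130 and 144 CPM on day 0, 85.9, 89.2 and 84.6 on day 6, and 48.7, 52.2 and 47.9 on day 12. In each gene the 3 days were in descending order with no overlap.

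Mt1 fell by 0.47 ± 0.03 on the log2 scale on day 6 (adjusted p = 5.72e-09) and by a further 0.40 ± 0.03 on day 12 (adjusted p = 2.83e-07), ending 1.83-fold below day 0. Mt2 fell by 0.67 ± 0.04 (adjusted p = 1.26e-09) and then by 0.80 ± 0.04 (adjusted p = 2.64e-09), ending 2.77-fold below day 0. These falls were called in every alternative run. The ratio of Mt1 to Mt2 in TPM was 1.69, 1.70 and 1.55 on day 0, 1.90, 1.80 and 2.02 on day 6, and 2.61, 2.36 and 2.66 on day 12. The days did not overlap, and the exact two-sided permutation p was again 0.1 for each pair of days. Exons of Mt2 share bases with Gm45774 on the other strand.

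Slc30a1, which exports zinc across the plasma membrane and is a known target of Mtf1, followed the same course from a lower level. It measured 17.9 ± 1.75 CPM on day 0, 12.6 ± 0.394 on day 6 and 9.97 ± 0.554 on day 12, a fall by 0.51 ± 0.07 on the log2 scale (adjusted p = 8.12e-06) and then by 0.34 ± 0.07 (adjusted p = 0.0012), the latter not called on log2(TPM + 1). Mtf1 itself measured 26.0 ± 0.332, 28.8 ± 1.58 and 29.0 ± 1.05 CPM and was called higher on day 6 by 0.15 ± 0.05 in counts (adjusted p = 0.00892), but turned to lower in TPM rescaled by median ratios.

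Mtf1 binds metal response elements, and because Mt1, Mt2 and Slc30a1 fell together at both steps, the 250 bases before their RefSeq starts are printed, on the plus strand of GRCm38.p6 in all 3 cases. They are chr8:94178839-94179088 for Mt1, chr8:94172368-94172617 for Mt2 and chr1:191906531-191906780 for Slc30a1. Capitals mark each match to the element's core, searched on both strands as TGCACNC or TGCGCNC.
Mt1: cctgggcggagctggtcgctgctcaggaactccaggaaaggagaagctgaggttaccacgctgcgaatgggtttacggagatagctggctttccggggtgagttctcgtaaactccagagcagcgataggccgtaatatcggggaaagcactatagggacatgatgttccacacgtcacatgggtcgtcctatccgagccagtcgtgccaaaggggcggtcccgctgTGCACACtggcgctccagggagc
Mt2: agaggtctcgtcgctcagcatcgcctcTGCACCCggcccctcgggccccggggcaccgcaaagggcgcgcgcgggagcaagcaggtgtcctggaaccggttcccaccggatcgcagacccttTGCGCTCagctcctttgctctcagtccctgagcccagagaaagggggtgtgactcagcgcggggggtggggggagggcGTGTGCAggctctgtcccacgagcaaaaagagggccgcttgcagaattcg
Slc30a1: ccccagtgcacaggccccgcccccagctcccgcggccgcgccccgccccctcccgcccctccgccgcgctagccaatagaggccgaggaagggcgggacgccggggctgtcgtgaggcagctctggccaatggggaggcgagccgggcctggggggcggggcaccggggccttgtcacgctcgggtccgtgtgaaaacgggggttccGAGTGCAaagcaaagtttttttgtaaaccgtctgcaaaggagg
The windows held 1, 3 and 1 cores. Only these bases before 1 RefSeq start per gene were searched. Cores farther upstream or after that start were not counted, so these numbers are not totals for the promoters. Ireb2 and Slc30a5, also called lower at both steps, held 0 and 1. Of genes called higher on day 6, Slc30a4 held 2 and Slc39a3 held 1, while Cp, Fth1 and Ftl1 held 0. Whether cores go with the falls was not tested. At least 1 core occurred in 21.4% of the 32851 RefSeq windows of this length, and at least 3 in 1.26%. Of the 41 metal handling genes with an entry, 21 had at least 1 core in at least 1 of their 54 windows. Some genes had more than 1 window, so a count by gene cannot be set against a share of windows. The other 8 genes, Slc40a1 and Slc39a14 among them, had no entry. The core of the antioxidant response element, TGACNNNGC, occurred in the windows of Mt2 and Slc30a1 but not Mt1, against 10.2% of all windows. Counted by gene, 9 of the 41 had this core in at least 1 window. A match describes letters and not binding.

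Of the 10 Slc30 genes, Slc30a1 included, 6 were tested, and by day 6, 2 of them rose and 4 fell, where 33.5% of all genes were called higher and 31.4% lower. Slc30a4, which loads zinc into vesicles, measured 133 ± 2.83, 206 ± 7.68 and 178 ± 4.56 CPM. It rose 1.55-fold on day 6 (log2 0.64 ± 0.03, adjusted p = 2.01e-10) and was 1.34-fold above day 0 on day 12. Slc30a7, of the Golgi, measured 82.9 ± 1.22, 97.2 ± 1.53 and 79.3 ± 3.46 CPM, higher on day 6 by 0.23 ± 0.03 (adjusted p = 2e-05) and then lower by 0.29 ± 0.03 in counts, a step that was called higher on log2(TPM + 1). Slc30a5 and Slc30a6 form a complex in the early secretory pathway, and both were lower on day 6.

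Slc30a5 measured 65.1 ± 1.17, 59.5 ± 0.682 and 55.6 ± 1.51 CPM, and its second step down (-0.10 ± 0.03, adjusted p = 0.0183) was lost without day 6 library A or B, without day 12 library A, with upper-quartile factors and with no filter, and was called higher on log2(TPM + 1). Slc30a6 fell and rose again, with 22.5 ± 0.61, 19.7 ± 0.388 and 21.9 ± 0.633 CPM, as did Slc30a9 with 85.3 ± 1.53, 76.3 ± 1.71 and 86.9 ± 4.21 CPM. Neither was called between days 0 and 12 in the main test. On TPM rescaled by median ratios both were called between those days, and the later rise of Slc30a6 was lost. Slc30a2, Slc30a3, Slc30a8 and Slc30a10 were too scarce to test.

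Of the zinc importers, Slc39a10, a plasma membrane transporter, came back close to its day 0 level. It measured 58.5 ± 2.12 CPM on day 0, 38.2 ± 0.634 on day 6 and 55.5 ± 1.81 on day 12, 1.53-fold lower on day 6 (log2 -0.62 ± 0.04, adjusted p = 8.03e-10) and then 1.45-fold higher (0.54 ± 0.04, adjusted p = 3.08e-08). Days 0 and 12 overlapped, with a difference of -0.08 ± 0.04 (adjusted p = 0.0724) that was called as lower with DESeq2 size factors and as higher on log2(TPM + 1). Slc39a3 rose at both steps, at 23.1 ± 0.237, 29.4 ± 1.5 and 34.3 ± 0.86 CPM, ending 1.48-fold above day 0 (adjusted p = 1.3e-08). Slc39a13, a zinc transporter of the secretory pathway, rose to 41.8 ± 0.982 CPM from 32.3 ± 1.22 and stayed at 41.8 ± 0.24.

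Slc39a6 fell from 113 ± 5.05 to 89.5 ± 1.52 CPM and measured 84.4 ± 4.26 on day 12, while Slc39a7, which releases zinc from the endoplasmic reticulum, measured 154 ± 8.2, 141 ± 1.2 and 148 ± 1.43 CPM and was lower on day 6 only by 0.13 ± 0.04 on the log2 scale. Slc39a1, Slc39a9 and Slc39a11 were not called in any comparison, at 193 ± 0.596, 191 ± 5.86 and 194 ± 4.13 CPM for Slc39a1, 61.5 ± 1.74, 62.2 ± 1.42 and 58.8 ± 1.59 for Slc39a9, and 19.5 ± 0.213, 18.4 ± 0.783 and 19.0 ± 0.963 for Slc39a11. Slc39a2, Slc39a4 and the pseudogene Slc39a1-ps lay under 1 CPM at every day. Their means on days 0, 6 and 12 were 0.214, 0.154 and 0.163 CPM for Slc39a2, 0.0391, 0.170 and 0.183 for Slc39a4, and 0.138, 0.106 and 0.254 for Slc39a1-ps. Slc39a4, with 9, 35 and 40 counts by day, was called higher on day 6 (adjusted p = 0.0129), a call lost without day 6 library B. Slc39a1-ps was called higher on day 12 than on day 6 (adjusted p = 0.0284) but as a copy of Slc39a1 it can share reads with that gene, so its value is uncertain, and the call was lost without day 6 library A or B and without day 12 library A or C. Slc39a5 and Slc39a12 were too scarce to test.

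**Figure D4:**
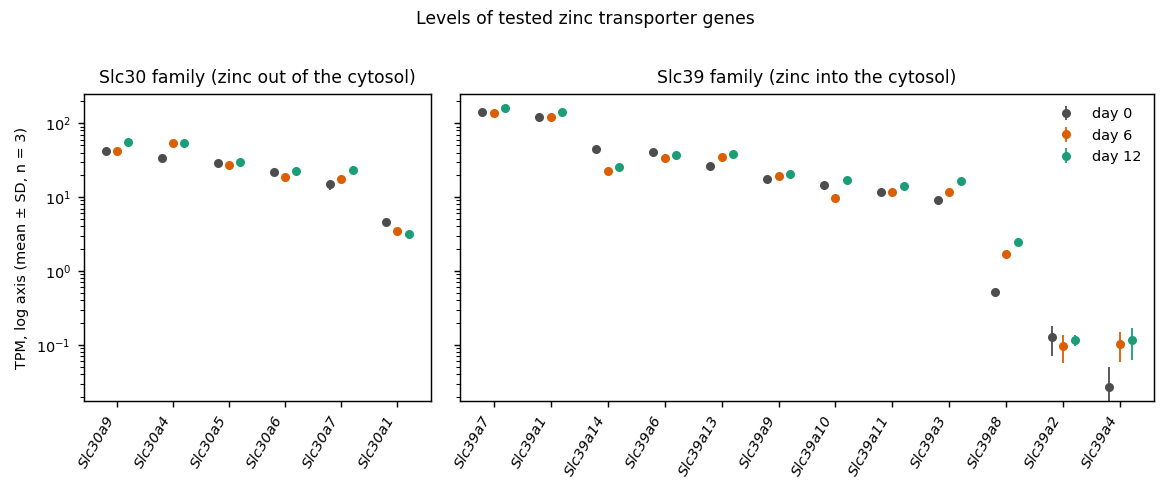
Levels in TPM (log axis, mean ± SD, n = 3) of the tested Slc30 and Slc39 genes on days 0, 6 and 12, ordered within each family by the day 0 mean. Slc39a7 and Slc39a1 stand above 100 TPM at every day, and Slc39a14 is lower and Slc39a8 higher at both later days than on day 0.

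Summed per length, ferritin made up most of the metal handling RNA, with 3710 ± 28 TPM of 6825 ± 36 on day 0 and 5945 ± 160 of 8781 ± 180 on day 6. Metallothioneins held 2031 ± 17 TPM on day 0 and 1370 ± 16 on day 6, the Slc39 family 427.8 ± 5.6 and 403.3 ± 7.6, and the Slc30 family 147.2 ± 4 and 163.2 ± 1.2. On day 12 the sums were 6790 ± 76 TPM for ferritin, 1080 ± 19 for metallothioneins, 474.2 ± 20 for Slc39 and 189.3 ± 9.4 for Slc30. TPM rose in general on day 12, where the median gene was 0.16 higher than on day 6 on log2(TPM + 1), and the mitochondrial share of TPM was 11.4% to 15.01% against 19.9% to 20.3% on day 6.

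None of the 4 copper transporter genes, Slc31a1, Slc31a2, Atp7a and Atp7b, was called on day 6, with adjusted p from 0.168 to 0.627 by edgeR, 0 with an unadjusted p under 0.05, and 0 called by DESeq2. The importer Slc31a1 measured 105 ± 1.99, 102 ± 3.06 and 84.1 ± 0.541 CPM, lower on day 12 than on day 6 by 0.28 ± 0.03 (adjusted p = 3.8e-06), and the pump Atp7a measured 42.2 ± 0.727, 43.8 ± 0.981 and 37.4 ± 1.43, lower by 0.23 ± 0.04 (adjusted p = 0.000159). Neither fall was called on log2(TPM + 1). Slc31a2, which releases copper from endosomes, was higher on day 12, at 17.1 ± 0.751, 18.1 ± 0.629 and 21.02 ± 0.556 CPM (adjusted p = 0.00184 against day 6), and Atp7b lay at 0.198 ± 0.107, 0.170 ± 0.0851 and 0.253 ± 0.0255 CPM and was not called. Of the magnesium transporters, Slc41a1 measured 35.4 ± 0.415, 39.7 ± 0.809 and 39.96 ± 0.609 CPM and Slc41a3 measured 4.76 ± 0.346, 7.25 ± 0.195 and 7.28 ± 0.516, both higher on day 6 and not called after it. Slc41a2 measured 15.3 ± 0.215, 14.1 ± 0.624 and 12.2 ± 0.798 CPM and was lower on day 12 than at either other day in counts, a fall against day 6 that turned to a slight uncalled rise in mean TPM (4.55 to 4.61).

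The day 12 comparisons ask how much of this returned after doxycycline. Between days 6 and 12, 10 metal handling genes rose, 14 fell and 17 were not called, where 45.3% of all genes were called, 22.6% higher and 22.7% lower. Against day 0, 14 were higher, 14 lower and 13 not called on day 12, where 66.4% of all genes were called, 34.7% higher and 31.7% lower. On log2(TPM + 1), without correction for the general shift, the split was 22 higher and 2 lower between days 6 and 12 and 22 higher and 8 lower against day 0. At 2-fold or more 1 gene, Slc39a1-ps, was higher and none lower between days 6 and 12, where 2.28% and 1.99% of all genes were, 4.27% together. Against day 0, 6 were higher and 2 lower at 2-fold or more, where 9.43% and 4.18% of all genes were, 13.6% together. Slc11a1 and Slc39a4 were again among the 6, and like Slc39a1-ps they lay under 1 CPM at every day. Libraries did not overlap in 27 of the 41 between days 6 and 12 (53.9% of all genes) and in 29 of the 41 between days 0 and 12 (69.7%).

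Of the 41 tested genes, 10 were called on day 6 and then the other way on day 12, which 25.8% of all genes were. They were Cp, Fth1, Slc40a1, Slc30a4 and Slc30a7, which had risen and whose later fall was not called on log2(TPM + 1) or, for Slc30a7, was called as a rise there, and Slc30a6, Slc30a9, Slc39a10, Steap1 and Steap2, which had fallen. On rescaled TPM the later falls of Cp, Fth1, Slc40a1 and Slc30a4 stayed called. The later steps of Slc30a7, Slc30a6 and Steap2 were lost there. In the main test, days 0 and 12 were not called apart in 5 of the 10, namely Slc30a6, Slc30a7, Slc30a9, Slc39a10 and Steap2. Each of these 5 was called apart in some alternative run, so a return to day 0 depends on the method. Slc30a7, Slc30a9, Slc39a10 and Steap2 were called on log2(TPM + 1), and Slc30a6, Slc30a7 and Slc30a9 on rescaled TPM. Slc30a7 and Slc39a10 were also called by DESeq2. Slc40a1, Cp and Fth1 remained called above day 0 by the folds given above. In all, 23 genes called on day 6 were called the same way against day 0 on day 12, against 51.1% of all genes. Among the 41, Ftl1, Slc39a3, Slc39a8, Mt1, Mt2, Slc30a1, Slc30a5 and Ireb2, 8 in all, took a second called step in the first direction, where 8.44% of all genes did. On log2(TPM + 1) the second step of Slc30a5, lost also without any of 3 single libraries, turned to a called rise, and those of Slc30a1 and Ireb2 were not called. The day 6 libraries enter both comparisons, which therefore share samples, and these counts rest on the scaling of the counts.

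Genes of metal pathways outside these families were also called in both directions. Of 67 listed, 59 were tested, and by day 6, 25 rose, 21 fell and 13 were not called, where 33.5% of all genes were called higher and 31.4% lower, with a median log2 fold change of 0.03 against 0.02 for all genes. Between days 6 and 12, 19 rose, 9 fell and 31 were not called, where 22.6% of all genes were called higher and 22.7% lower. Against day 0, 29 were higher, 17 lower and 13 not called, where 34.7% and 31.7% of all genes were called higher and lower. Lcn2, which encodes a siderophore-binding protein released by injured tubules, was 0.42 ± 0.0407 CPM on day 0, 6.14 ± 0.848 on day 6 and 4.42 ± 0.427 on day 12, a rise of 3.86 ± 0.15 on the log2 scale (adjusted p = 4.44e-12).

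Cybrd1, a ferric reductase, rose 1.98-fold on day 6 from 41.8 ± 0.101 to 82.7 ± 0.521 CPM and measured 71.4 ± 2.46 on day 12. Hmox1, which frees iron from haem, went from 21.5 ± 2.29 to 35.9 ± 1.69 and 36.0 ± 1.42 CPM, and the haem transporter gene Slc48a1 from 87.8 ± 3.95 to 127 ± 3.96 and 123 ± 4.97, both called higher on day 6. The haem exporter Flvcr1 fell at both steps, from 17.2 ± 0.946 to 14.0 ± 0.744 and 11.9 ± 0.387 CPM. Ncoa4, the receptor that delivers ferritin to lysosomes, rose 1.13-fold on day 6, from 142 ± 2.46 to 160 ± 4.97 CPM, and measured 156 ± 3.08 on day 12.

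Not called in any comparison were Fbxl5, which marks an iron regulatory protein for degradation, at 78.8, 81.2 and 82.2 CPM, and the iron chaperone Pcbp1, at 246, 238 and 243 CPM. Heph, encoding the ferroxidase hephaestin, had 2 counts in all. Of copper chaperones, Atox1 rose from 37.3 ± 1.73 to 43.8 ± 1.59 CPM on day 6 and measured 46.8 ± 0.999 on day 12, and Ccs fell from 35.7 ± 1.88 to 30.8 ± 0.505 and measured 33.7 ± 1.33. Trpm7, a channel for magnesium and zinc, rose 1.84-fold on day 6, from 183 ± 2.67 to 337 ± 3.87 CPM, and fell to 250.3 ± 10.9 on day 12 (log2 -0.43 ± 0.03, adjusted p = 1.16e-07).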

How the data were processed

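PolyA RNA of 9 libraries was measured, 3 at each of 3 days. Per the submitters' processing notes, the tools were cutadapt 2.3, FastQC 0.11.8, STAR 2.7.8a and RSEM 1.3.3 on GRCm38. The deposited gene counts were whole numbers, and whether the authors rounded RSEM estimates is not given in the sources used here. The deposited TPM were the authors' values, scaled for length within each library. The members and lists were chosen with earlier results of these data known. Counts were fitted in R 4.3.3 with edgeR 4.0.16 (TMM, default filter by group, 1 quasi-likelihood fit of 9 libraries with 6 residual degrees of freedom), with Benjamini-Hochberg adjustment over 16353 genes and an adjusted p threshold of 0.05. The script was tested on simulated data. SE is the absolute log2 fold change divided by the square root of F. Alternatives used DESeq2 1.42.0, limma 3.58.1 on log2(TPM + 1) and log2(TPM + 0.1), other size factors, other filters and libraries left out. Rescaled TPM, divided by median ratios over tested genes, were added after the data had been seen. Given library by library were Slc40a1, Fth1, Ftl1, Tfrc, Mt1, Mt2 and each member with a called change of 2-fold or more, a mean of 1 CPM or more in the higher group and no overlap of libraries. All other tested members are named with their levels, and 12 genes of the wider list were named whatever their change. Iron-responsive elements were searched in whole GENCODE transcripts, coding parts included, with member sites kept only for genes with a RefSeq promoter entry. Promoter windows came from RefSeq. A protein table was not used here, so the planned protein description was not made.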

Additional observations from a re-analysis of the deposited data

How the results depend on the processing

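Of the 10 genes given library by library, every day 6 against day 0 and day 12 against day 0 fold change kept its direction and its side of the threshold under all alternatives run. The exceptions were between days 6 and 12. On log2(TPM + 1) and log2(TPM + 0.1), Fth1 turned to 0.045 and 0.045, Slc40a1 to 0.010 and 0.011, and Tfrc to 0.14 and 0.14, and Slc39a14 turned to -0.027 on rescaled TPM. Cp (-0.03) on TPM and Ftl1 (0.11) on rescaled TPM lost their calls. On log2(TPM + 1) and log2(TPM + 0.1), 11 and 12 genes were higher and 10 and 10 lower between days 0 and 6. The counts of genes on TPM were 22 and 22 higher and 2 and 2 lower between days 6 and 12, and 22 and 24 higher and 8 and 8 lower between days 0 and 12, where the median of all genes on that scale had moved by 0.16 and 0.21 between days 6 and 12 and by 0.19 and 0.25 between days 0 and 12. Rescaled TPM gave 7 higher and 10 lower between days 6 and 12. Of all genes called between days 6 and 12, 50% were higher in the main test, 90.1% on either TPM scale and 60.5% with upper-quartile factors. Leaving out 1 library at a time gave 13 to 14 higher and 15 to 16 lower at day 6 against day 0, 7 to 11 and 13 to 15 at day 12 against day 6, and 14 to 14 and 14 to 16 at day 12 against day 0. The 7 came without day 6 library A and without day 12 library A, each of which also ended the call of Slc39a8. No sign that the replicate letters pair libraries was seen, which cannot exclude a pairing. Same-letter deviations correlated between -0.104 and 0.143 and other-letter deviations between -0.168 and 0.161. Of 9 libraries, 3 correlated best with their own letter. With the letter as a replicate block the counts were 14 higher and 15 lower, 10 and 14, and 14 and 14, and no member's call changed. Genes under 1 CPM rest on few counts, and the calls of Slc39a4 and Slc39a1-ps were lost without 1 library.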
